A study of Mus musculus with 20 samples.

Results

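Sostdc1 and 3 companion genes, Ntrk3, Fam20a and Susd2, were examined across the follicular T cells of mixed 564Igi and wild type (WT) bone marrow chimeras. They are 4 of the 13798 genes in the deposited feature table and were taken by name. The companions were chosen by their measured levels across the clusters and conditions of these same cells, which had shown them moving with Sostdc1. Their pattern over clusters, their difference between conditions and their detection together with Sostdc1 are therefore given as a description, without a test.

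From the spleen of each of 10 C57BL/6 chimeras, 5 WT and 5 564Igi, a single-cell expression library and a T cell receptor (TCR) library were made separately. All recipients were young adult mice that were irradiated and given marrow from young adult donors. WT chimeras received congenic WT marrow and were immunized at week 6 with NP-OVA in alum, which drives germinal centers against a foreign antigen. Weeks are counted from marrow reconstitution, and the paper's methods also describe a later NP-OVA booster for these mice. 564Igi chimeras received WT marrow together with marrow from 564Igi mice, which carry a knocked-in heavy and light chain of a B cell receptor against ribonuclear complexes, and they were not immunized. All 10 were analysed at week 10, and in both conditions the sorted cells were T cells (CD3+ and CD4+) with CXCR5 and PD-1 that carried CD45.2 and not CD45.1. The libraries were labelled by sex, 2 female and 3 male among WT and 3 female and 2 male among 564Igi. Immunization and the autoreactive marrow differ together between the conditions, so their parts in a difference cannot be told apart.

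Sostdc1 encodes a secreted protein that binds bone morphogenetic proteins (BMPs) and the Wnt co-receptor Lrp6, and so antagonizes both kinds of ligand. It is known from tooth, kidney and hair follicle development and marks a subset of T follicular helper (Tfh) cells. Ntrk3 encodes TrkC, the receptor tyrosine kinase for neurotrophin-3, best known from sensory neurons. Fam20a encodes a pseudokinase of the secretory pathway that assists the kinase Fam20C, and its loss causes enamel defects. Susd2 encodes a type I membrane protein with a sushi domain. Tfh cells help B cells in germinal centers through CD40 ligand and interleukin-21, and T follicular regulatory (Tfr) cells, marked by Foxp3, restrain that help.

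The 14965 WT cells came as 1890 to 4030 cells a mouse, with UMI totals of 7884205 to 15241983. The 13227 564Igi cells came as 1121 to 3120 cells a mouse, with UMI totals of 3424280 to 14827300. A UMI is a molecular tag that counts 1 captured transcript. The median UMI total of a cell was 2937.5 to 3823.5 in WT mice and 2728 to 4375.5 in 564Igi mice. Barcodes found in more than 1 library numbered 491 and covered 3.5% of cells. The T cell transcript Cd3e was detected in 99.4% of cells and Cd4 in 67.3%. Of 6 B cell markers 5 were in the table, with 4 of 5 myeloid and 2 of 9 stromal markers, and each was detected in at most 4.37% of cells, the highest being Cd22. The authors' clusters carried their naming genes, such as Foxp3 in 56.7% of Tfr cells and 6.98% of other cells. Tnfsf8, which named the activated Tfh cluster, was found in 63.4% of its cells but also in 76.5% of cells of the Sostdc1 cluster.

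On GRCm38, in the GENCODE annotation, Sostdc1 lies on chromosome 12 at 36314139 to 36318452 on the plus strand. The companions lie on 3 other chromosomes, all on the minus strand. Ntrk3 spans chromosome 7 from 78175959 to 78738012, Fam20a chromosome 11 from 109669749 to 109722279, and Susd2 chromosome 10 from 75636706 to 75644008. The promoter of Fam20a is shown because it was the only gene of the group with a RefSeq promoter window at hand. Of the motifs sought, the E-box is bound by Ascl2, the gene most like Fam20a over clusters. The other is the core of TCF/LEF factors such as Tcf7, which was higher in Tfr cells with Sostdc1. The RefSeq window runs from 250 bases before to 50 bases after the start of the gene, on the minus strand of GRCm38.p6, at chr11:109722189-109722488. Capitals mark the TCF/LEF core CTTTG and its reverse complement CAAAG.

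Fam20a promoter: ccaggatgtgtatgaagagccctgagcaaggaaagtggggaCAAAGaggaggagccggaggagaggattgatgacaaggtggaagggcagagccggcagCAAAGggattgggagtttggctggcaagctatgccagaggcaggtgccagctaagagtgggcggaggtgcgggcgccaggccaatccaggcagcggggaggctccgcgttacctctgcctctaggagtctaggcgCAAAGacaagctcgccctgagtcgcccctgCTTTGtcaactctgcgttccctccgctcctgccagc

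The core was found 4 times, 3 times as CAAAG, and 1.40% of the 32851 promoters of the same length held it at least as often. At least 1 match was present in 53.9% of those promoters. The E-box CANNTG, the motif of basic helix-loop-helix factors, had 1 match, and 72.3% of promoters held at least 1. A match gives the letters of the window and says nothing on binding.

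Sostdc1 separated its own cluster by level as well as by detection. All 2803 cells of the Sostdc1 cluster had at least 3 corrected counts of Sostdc1, with a median of 13 and a highest value of 65. The corrected count is the UMI count after the authors' adjustment for cell depth. Mean counts in that cluster were 14.4, 11.9, 13.4, 15.1 and 16.3 in WT mice 11, 12, 14, 23 and 36, and 15.1, 14.9, 15.9, 11.9 and 15.4 in 564Igi mice 13, 17, 21, 24 and 34. The 2 conditions overlapped fully. These values used the gene that defines the cluster and carry no test.

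Outside the cluster 14.1% ± 2.83 of cells (SD over 10 mice) had a Sostdc1 UMI, 42.3% of them a single one. Free RNA in droplets can give a UMI in a cell that does not express the gene, and the sorted cells hold no cell type known to lack Sostdc1. The lowest share, 5.58% in central memory cells, is therefore the only reference here. In the values that follow, a cell with Sostdc1 is a cell with a UMI of it. In the activated cluster the share was 15.4, 22.4, 26.1, 17.6 and 19.1% in WT mice and 23, 14, 23, 15.6 and 21.4% in 564Igi mice. In the Tfr cluster it was 6.86, 8.77, 11.5, 9.09 and 6.98% in WT mice and 9.20, 6.60, 12, 9.69 and 10.7% in 564Igi mice. Each mouse had a lower share in Tfr than in activated cells. Among detected cells the median count was 2 in both clusters, and 38.6% of detected activated cells and 49.4% of detected Tfr cells held 1 count.

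The highest counts outside the cluster were 20 in activated and 44 in Tfr cells. Of the 2056 cells with 10 or more counts, 1982, or 96.4%, were in the Sostdc1 cluster. Going by the lowest count of the cluster, 3, a further 1513 cells outside it reached the same level. The cluster held 44.2% of the cells with Sostdc1 and 80.5% of its counts, from 9.94% of all cells. The interferon-stimulated (ISG) cluster, at 19% ± 8.13 (n = 8 mice with 20 or more cells), lay within the spread of the activated cluster. The effector cluster had 8.53% ± 6.99 (n = 10) and the central memory (CM) cluster 5.58% ± 4.09 (n = 8), and neither differed from Tfr beyond the spread. The median UMI totals of the activated, Tfr, effector and CM clusters were 3547, 3461, 3471 and 4027, and the part of free RNA in these shares was not tested.

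**Figure D1:**
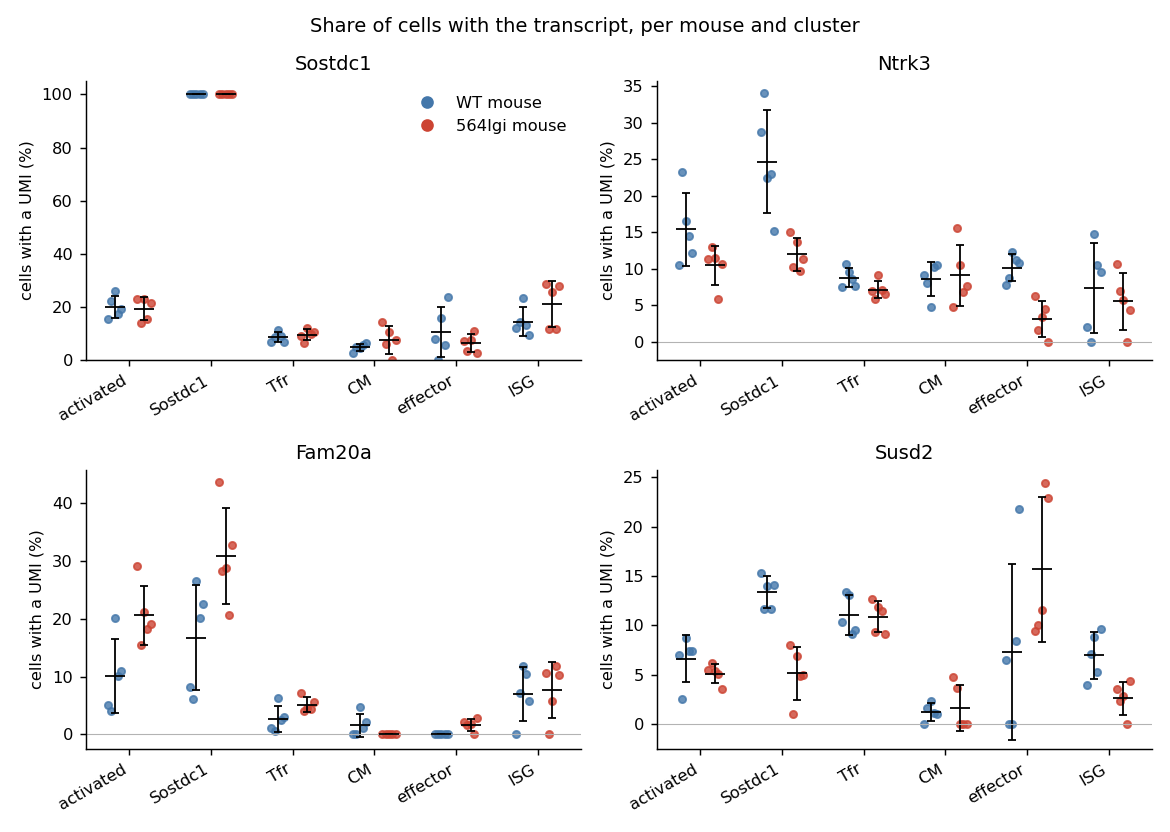
Share of cells with at least 1 corrected UMI (%) of Sostdc1, Ntrk3, Fam20a and Susd2 in each of the 6 clusters. Each point is 1 mouse, blue for WT and red for 564Igi, and black bars give the mean and SD of the 5 mice of a condition. Ntrk3 and Susd2 in the Sostdc1 cluster were higher in each WT mouse than in any 564Igi mouse, and Fam20a was near 0 in the CM and effector clusters. Mice with under 20 cells in a cluster are drawn and enter the bars, but were left out of the values in the text.

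Ntrk3 was highest in the Sostdc1 cluster, at 18.3% ± 8.31 of cells over the 10 mice, against 12.9% ± 4.55 in activated and 7.99% ± 1.48 in Tfr cells. It was above the activated cluster in 9 of 10 mice and above Tfr in 10 of 10. CM, ISG and effector cells, at 8.76, 8.08 and 6.68%, did not differ from Tfr beyond their spread. Because the activated and Tfr clusters are large, they held 49.7 and 30.1% of all cells with Ntrk3 and the Sostdc1 cluster 15.8%.

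Fam20a followed the same order with a steeper fall. It was found in 23.8% ± 11.1 of cells of the Sostdc1 cluster, 15.3% ± 7.79 of activated cells and 3.91% ± 2.17 of Tfr cells, and each of the 10 mice kept this order. ISG cells had 6.85% ± 4.79, CM cells 1.0% ± 1.71 and effector cells 0.836% ± 1.12. No WT effector cell had a Fam20a UMI, 0 of 274 cells pooled over 5 mice. If those cells are taken as independent, counting error alone allows a share of cells with a UMI of up to 1.09%.

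Over the mice of both conditions, Susd2 did not follow Sostdc1 over the clusters. Its share was 9.25% ± 4.79 in the Sostdc1 cluster, 11% ± 1.72 in Tfr and 5.87% ± 1.89 in activated cells. The Sostdc1 cluster was above the activated cluster in 8 of 10 mice but above Tfr in 4 of 10, all of them WT. In WT mice Susd2 was 13.3% in the Sostdc1 cluster, 11.1% in Tfr and 6.61% in activated cells. In 564Igi mice the matching values were 5.15, 10.9 and 5.12%. Effector cells had 11.5% ± 8.86, over a range of 0 to 24.4%, and CM cells 1.82% ± 1.69. Tfr cells held 53.9% of all cells with Susd2.

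Most cells of the Sostdc1 cluster had none of the companions. On average over mice, 57.5% ± 6.84 of its cells had no companion UMI, 34.1% had 1 of the 3 genes, 7.80% had 2, and 15 cells had all 3. The matching share without any companion was 69.9% ± 5.89 in activated and 79.2% ± 2.92 in Tfr cells. Cells with a companion usually held 1 count, as in each mouse's median for Ntrk3 in the Sostdc1 cluster.

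Within the Sostdc1 cluster Ntrk3 and Susd2 tended to be found in the same cells, with a log2 odds ratio of 1.04 ± 0.918 over mice that was above 0 in 10 of 10. The log2 odds ratio is 0 when detection of one gene does not differ with the other. The same pair stood at 1.0 in activated and 0.74 in Tfr cells. Ntrk3 and Fam20a gave 0.43 in the Sostdc1 cluster, -0.05 in activated cells and 0.74 ± 0.287 in Tfr cells (above 0 in 10 of 10 mice). Fam20a and Susd2 gave 0.28 in the Sostdc1 cluster, 0.79 in activated cells (above 0 in 10 of 10 mice) and -0.36 in Tfr cells. The companions therefore did not pair alike in the 3 large clusters, and the differences between clusters were not tested.

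Outside the Sostdc1 cluster, cells with Sostdc1 had Ntrk3 and Fam20a more often than cells without it. Ntrk3 was found in 14.9% ± 4.21 of the 3536 cells with Sostdc1 and 9.47% ± 2.34 of the others, and was higher in 10 of 10 mice. Fam20a was found in 13.3% ± 6.63 against 8.62% ± 4.39, and was higher in 9 of 10. Susd2 stood at 9.22% ± 2.46 against 8.16% ± 1.06, and was higher in 5 of 10. The median over mice of each mouse's median UMI total was 3551.75 in cells with Sostdc1 and 3517.25 in the others.

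Among 9962 genes, Ntrk3 and Fam20a ranked 88 and 90 by this co-detection, with mean log2 odds ratios of 0.75 and 0.74. Susd2 ranked 1969 at 0.17. The median gene had 0.04 and the 95th percentile was 0.36. The 9962 values share the same cells and libraries, so the ranks are a description.

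The excess depended on the cluster. In activated cells Ntrk3 was found in 15.8% with and 12.3% without Sostdc1, higher in 8 of 10 mice, while Fam20a was found in 16.6 and 15%, higher in 6 of 10. In Tfr cells Ntrk3 was found in 14 and 7.43%, higher in 9 of 10 mice, and Fam20a in 6.65 and 3.6%, higher in 10 of 10. Susd2 was found in 7.34 and 5.54% of activated cells, higher in 8 of 10 mice, and in 12.4 and 10.8% of Tfr cells, higher in 7 of 10. For Fam20a both differences within a cluster were smaller than that over all cells outside the Sostdc1 cluster, where activated cells made up more of the cells with Sostdc1 than of those without.

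**Figure D2:**
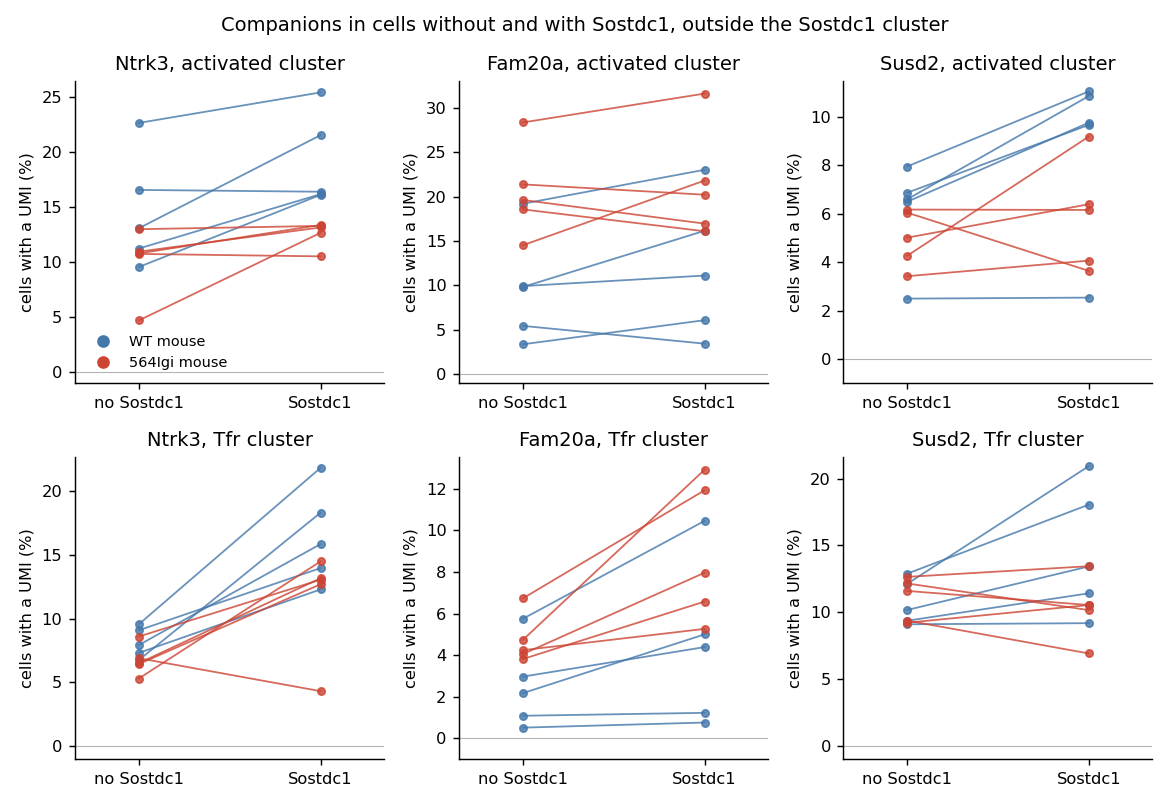
Share of cells (%) with Ntrk3, Fam20a or Susd2 among cells without and with a Sostdc1 UMI, in the activated cluster (top) and the Tfr cluster (bottom). Each line joins the values of 1 mouse, blue for WT and red for 564Igi. Fam20a in Tfr cells rose along the line in 10 of 10 mice, against 6 of 10 in activated cells.

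Fam20a was higher at each higher Sostdc1 level, with a smaller range within the activated cluster alone. Outside the Sostdc1 cluster its share was 8.62% in cells with no Sostdc1, 11.9% at 1 or 2 counts and 15.4% at 3 or more. Within the activated cluster alone the matching shares were 15, 15.6 and 17.8%. Inside the Sostdc1 cluster it was 20.1% below 10 counts, 23.8% at 10 to 19 and 28.4% at 20 or more. Ntrk3 went from 9.47 to 13.6 and 16.8% outside, or 12.3, 15.3 and 16.4% in activated cells alone, and was level inside, at 17.5, 18.8 and 18.9%. Susd2 lay between 6.66 and 10.5% in all 6 groups as a mean over both conditions, which differed. In WT mice it was 8.30, 10.8 and 11.1% outside and 9.99, 14.8 and 14.3% inside. In 564Igi mice it was 8.02, 7.09 and 8.06% outside and 3.34, 6.17 and 4.91% inside. At 3 or more counts, then, cells outside the cluster had Ntrk3 at nearly the share of cells inside it, and Fam20a below it.

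**Figure D3:**
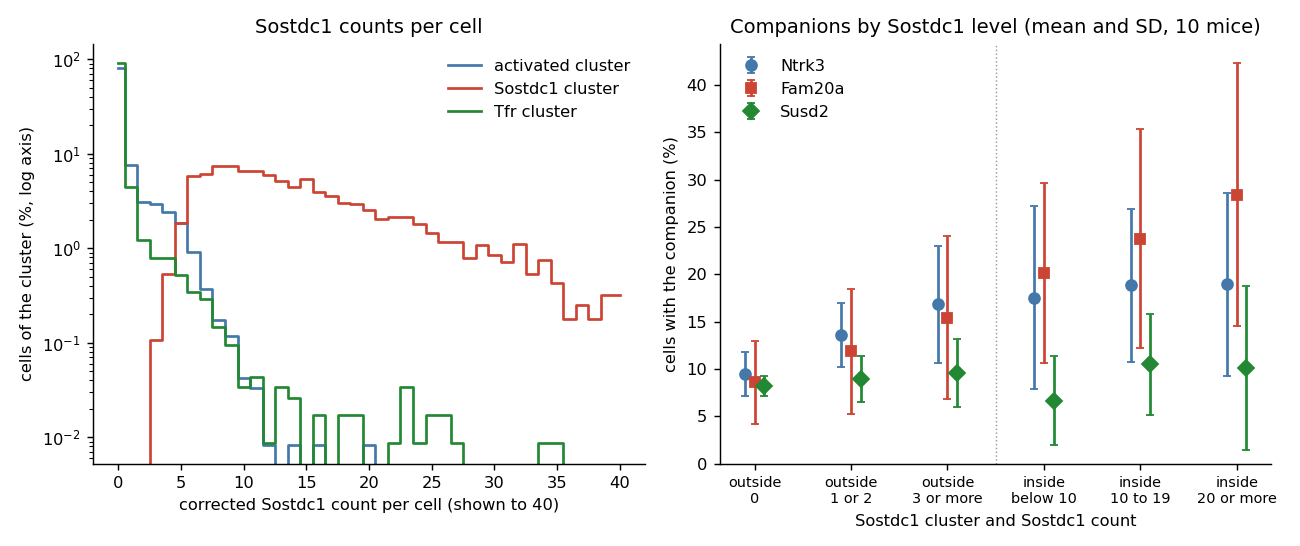
Left, share of cells (%, log axis) of the Sostdc1, activated and Tfr clusters at each corrected Sostdc1 count, drawn to 40 counts. Right, mean and SD over mice (10, or 9 at 20 or more counts) of the share of cells (%) with each companion by Sostdc1 count, outside the cluster to the left of the dotted line and inside it to the right. Outside the cluster all other clusters are mixed. In these means over both conditions Fam20a is higher at each higher Sostdc1 level, and Susd2 is not.

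Over the 56 cluster-by-mouse means with at least 20 cells, the genes most like Sostdc1 included Slc1a4 (Pearson r = 0.864), 2610204G07Rik (0.846), Stat4 (0.814) and Dgki (0.813). Fam20a ranked 60 of 9968 genes (r = 0.716), Ntrk3 173 (0.60) and Susd2 2787 (0.143). These points share libraries and clusters and carry no test. Ntrk3 was most like Sbk2 (0.802) and Anxa3 (0.790). Fam20a was most like Ascl2 (0.937), a Tfh transcription factor, then Apoe (0.921) and Fam43a (0.921). Susd2 was most like Fam81a (0.668), Rgs16 (0.648) and Il2rb (0.635), the interleukin-2 receptor beta chain.

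Sostdc1 and Fam20a thus shared much of their pattern over clusters, and Susd2 shared little with the other 3. Among activated cells the genes with the highest correlations with Sostdc1 over single cells included Pdcd1 (mean r over mice 0.107), Tnfsf8 (0.105), Nrgn (0.0954) and Cd82 (0.0944). Ntrk3 ranked 135, Susd2 327 and Fam20a 455 of 9841 genes.

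The next comparison asked whether the 4 genes differed between autoimmune 564Igi and immunized WT chimeras, with the mouse as the replicate. Because the genes were chosen with their levels in these clusters and conditions known, the values are a description and carry no test. Ntrk3 and Susd2 were lower, and Fam20a higher, in the Sostdc1 cluster of 564Igi mice. The means of Sostdc1 itself lay within 1 SD of each other in the activated and Tfr clusters. Of 15 gene-by-population values compared over all cells and in the activated, Tfr and Sostdc1 clusters, 2 had groups that did not overlap.

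In the Sostdc1 cluster Ntrk3 was found in 28.7, 34, 22.4, 23 and 15.3% of cells of WT mice 11, 12, 14, 23 and 36. In 564Igi mice 13, 17, 21, 24 and 34 it was found in 15.1, 10.3, 13.6, 9.76 and 11.3%. The groups did not overlap, although the lowest WT mouse, 36, was close to the highest 564Igi mouse, 13. The means were 24.7% ± 7.07 and 12% ± 2.27 (n = 5 each). In this cluster 0.559% of 9845 genes were lower in 564Igi without overlap.

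Susd2 in the same cluster was found in 15.3, 11.7, 14, 11.7 and 14.1% of cells in WT mice and 7.98, 1.03, 6.92, 4.88 and 4.94% in 564Igi mice. Again the groups did not overlap, with means of 13.3% ± 1.61 and 5.15% ± 2.66 (n = 5 each). The 564Igi values rested on 82 cells with Susd2 among 1419, and the WT values on 185 among 1384.

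Fam20a was higher in 564Igi on average, with overlap. In the Sostdc1 cluster it was found in 8.13, 6.09, 26.6, 20.2 and 22.6% of cells in WT mice and 43.6, 28.4, 28.8, 20.7 and 32.8% in 564Igi mice. The means were 16.7% ± 9.09 and 30.9% ± 8.35 (n = 5 each). In the activated cluster the values were 5.14, 3.99, 20.2, 10.1 and 11% in WT mice and 29.1, 15.5, 21.1, 18.2 and 19% in 564Igi mice. WT mice 11 and 12 were lowest and WT mouse 14 lay among the 564Igi mice in both clusters.

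Those 2 low mice were the WT mice labelled female. Among mice labelled female, Fam20a in the Sostdc1 cluster was 7.11% in 2 WT and 35.1% in 3 564Igi mice. Among those labelled male it was 23.1% in 3 WT and 24.5% in 2 564Igi mice. In the activated cluster the matching values were 4.56 and 23.1%, and 13.8 and 16.9%. Ntrk3 and Susd2 in the Sostdc1 cluster were lower in 564Igi within both labelled sexes, at 31.4 and 13.4% for Ntrk3 in female and 20.2 and 10.0% in male mice, and 13.5 and 6.61%, and 13.3 and 2.95%, for Susd2. Leaving out 1 mouse gave a Fam20a difference of 11 to 16.7 percentage points in the Sostdc1 cluster (14.1 with all mice) and of 8.36 to 13 in the activated cluster (10.5 with all mice).

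Other populations showed smaller differences. Ntrk3 was 15.4% ± 4.93 in WT and 10.5% ± 2.68 in 564Igi activated cells and 8.82% ± 1.32 and 7.16% ± 1.20 in Tfr cells. Over all cells it was 12.8% ± 2.46 and 9.05% ± 1.51. Fam20a over all cells was 7.12% ± 4.83 and 14.4% ± 3.08, and in Tfr cells 2.68% ± 2.26 and 5.13% ± 1.31. Susd2 was 6.61% ± 2.39 and 5.12% ± 0.967 in activated cells. In Tfr cells it was 11.1% ± 2.01 and 10.9% ± 1.62. Sostdc1 was 20.1% ± 4.19 and 19.4% ± 4.27 in activated cells and 8.64% ± 1.90 and 9.63% ± 2.0 in Tfr cells.

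In the small effector cluster Ntrk3 was 7.79 to 12.3% in WT and 0 to 6.32% in 564Igi mice, from 28 and 15 cells with a UMI. That cluster was outside the 15 values compared, and the share of all genes without overlap was not computed in it. Susd2 in effector cells ran the other way, at 7.34% ± 8.90 in WT and 15.7% ± 7.35 in 564Igi mice, with overlap.

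On the scale of mean log2(corrected count + 1), no gene of the group passed the call used for all genes. That call was a limma adjusted p below 0.01 with a log2 difference above 0.2 in size. Where the WT mean was below 0.2, a fall could not reach that size. This held for Susd2 in the Sostdc1 cluster (0.17) and Ntrk3 in activated cells (0.18). Not passing is therefore no evidence that such a gene was alike in both conditions. In the Sostdc1 cluster the 564Igi minus WT difference was -0.10 (SE 0.0201) for Susd2, -0.14 (SE 0.0306) for Ntrk3 and 0.18 (SE 0.0490) for Fam20a, and in activated cells that of Fam20a was 0.13 (SE 0.0337). Among all genes limma called 0.0202% in the Sostdc1 cluster, 0.0101% in activated, 0.02% in Tfr and 0.01% over all cells. The authors corrected counts within each condition, so that step cannot be told apart from condition. In cells with 3000 to 5000 UMIs (9 mice) 5 of 9976 genes passed that call in the Sostdc1 cluster, Fam20a among them at 0.27. Because the gene was chosen with its levels in these conditions known, that pass is a description and not a test.

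The condition differences were then set against each other between clusters of the same mice. For Susd2 the 564Igi minus WT difference in the Sostdc1 cluster, less that in the activated cluster, was -6.71 percentage points, and less that in the Tfr cluster -8.01. For Ntrk3 the values were -7.74 and -11. For Fam20a they were 3.66 against activated and 11.7 against Tfr.

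In WT mice, then, Susd2 was 6.74 points higher in the Sostdc1 than in the activated cluster, with all 5 mice between 4.31 and 9.17. In 564Igi mice this gap was 0.03 points on average, from -5.14 to 2.48. Co-detection with Sostdc1 outside its cluster was set side by side in the same way, with no test. The log2 odds ratio of Ntrk3 was 0.86 in WT and 0.64 in 564Igi, that of Fam20a 0.86 and 0.63, and that of Susd2 0.44 and -0.09.

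TCR sequences gave a measure that the choice of genes had not used. Of the 28192 cells, 21405 had a clonotype, a pair of alpha and beta chain CDR3 sequences within a mouse. Expanded clonotypes, of 5 or more cells, were compared with singletons within each mouse by two-sided exact sign-flip tests, whose smallest p over 10 mice is 0.00195. Fam20a, Susd2 and Sostdc1 were found more often in expanded than in singleton activated cells, and Ntrk3 did not differ detectably.

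Fam20a in singleton activated cells was 2.58, 1.20, 15.4, 6.03 and 10.9% in WT and 21, 10.9, 15.8, 10.8 and 17.1% in 564Igi mice. In expanded cells it was 6.91, 4.24, 25.2, 12.8 and 12.3%, and 35.3, 18.9, 23.9, 24.1 and 20.7%. Each mouse was higher in expanded cells, by 7.26 points ± 4.30 on average (exact sign-flip p = 0.00195). At p below 0.05, 3.48% of genes were higher and 16.4% lower in expanded activated cells. Susd2 was 7.58% against 4.10%, higher in 9 of 10 mice (exact sign-flip p = 0.0195). Sostdc1 was 21.6% against 16.6%, higher in 7 of 10 (exact sign-flip p = 0.0430). The Sostdc1 value had an exact sign-flip p of 0.0586 to 0.0859 when any 1 of mice 11, 12, 14, 23, 36, 17 and 21 was left out (4.01 to 5.39 points against 5.07 with all mice).

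In Tfr cells Fam20a was lower in expanded cells, as were 14.3% of all genes at p below 0.05. It was found in 2.94% of expanded and 4.40% of singleton cells, higher in only 2 of 10 mice (exact sign-flip p = 0.0156). Median UMI totals were also lower in expanded than in singleton Tfr cells, in each mouse except WT mouse 14. With expanded set at 2 or at 10 cells that Fam20a difference was -0.61 and -0.83 points (exact sign-flip p = 0.363 and 0.242). In the Sostdc1 cluster the companions differed by -2.46 to 0.64 points between expanded and singleton cells (exact sign-flip p = 0.410 to 0.930, 9 mice, against 2.08% of genes higher and 3.33% lower). Over all cells Sostdc1 was found in 27.4% of expanded and 17.1% of singleton cells (10 of 10 mice, exact sign-flip p = 0.00195), where 4.21% of genes were higher. That value includes the Sostdc1 cluster itself, in which 66.9% ± 9.75 of WT and 48.3% ± 9.43 of 564Igi cells with a clonotype were expanded.

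**Figure D4:**
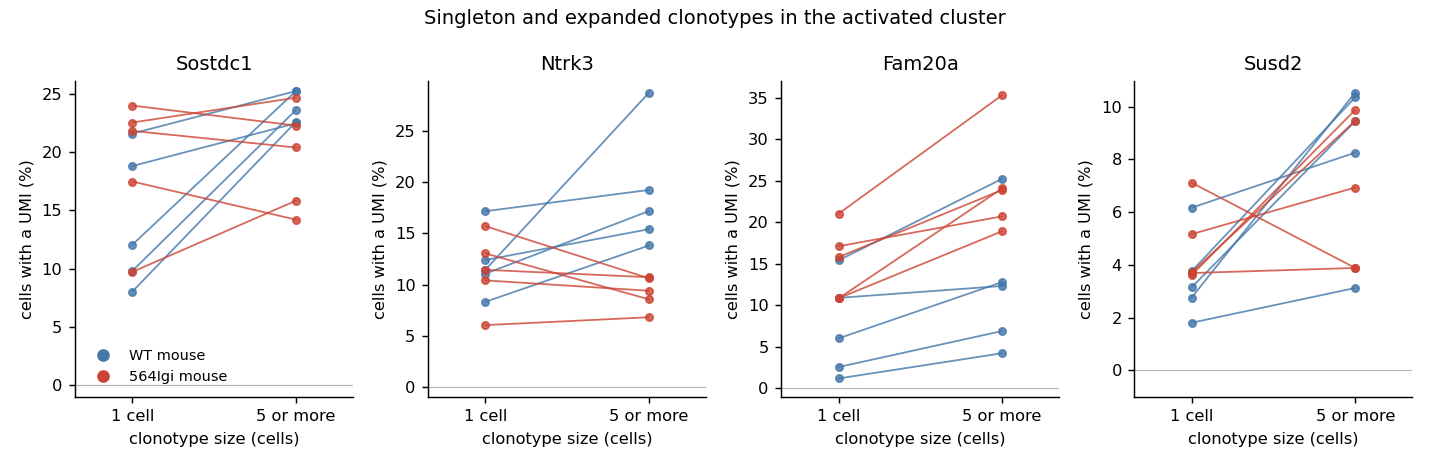
Share of activated-cluster cells (%) with each gene among clonotypes of 1 cell and of 5 or more cells. Each line joins the values of 1 mouse, blue for WT and red for 564Igi. Fam20a is higher in expanded cells in 10 of 10 mice, and Ntrk3 is higher in 5 of 5 WT and 1 of 5 564Igi mice.

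The relation of Sostdc1 and Ntrk3 to clone size differed between conditions. In WT mice 11, 12, 14, 23 and 36 Ntrk3 was 5.52, 17.3, 2.09, 6.14 and 3.01 points higher in expanded than in singleton activated cells. In 564Igi mice the differences were -0.72, -5.11, -4.50, 0.77 and -1.02. The 2 conditions did not overlap, and differed by -8.94 points (exact permutation p = 0.00794, two-sided and the smallest that 5 against 5 mice can give). Of all genes 1.02% were lower without overlap and 5.32% at p below 0.05. Median UMI totals were lower in expanded than in singleton activated cells of each 564Igi mouse, such as 4178 and 5157 in mouse 17. The same held in WT mice 12, 23 and 36, but not in WT mice 11 (4022.5 and 4001) and 14 (4114 and 3747). The part of depth in this difference between conditions was not tested.

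Sostdc1 differed by 9.77 points ± 5.60 in WT activated cells, with 5 of 5 mice higher. In 564Igi activated cells the value was 0.37 ± 3.77, with 2 of 5 higher (exact permutation p = 0.0317). Over all cells the Sostdc1 difference was 16.3 points in WT and 4.49 in 564Igi, without overlap (exact permutation p = 0.00794), where 1.44% of genes were lower without overlap and 6.85% at p below 0.05. The activated-cluster value for Sostdc1 had an exact permutation p of 0.0556 or 0.0635 without any 1 of mice 11, 12, 23, 13, 24 and 34. Fam20a was higher in expanded activated cells in 5 of 5 mice of each condition, by 5.08 and 9.45 points (exact permutation p = 0.111 for the difference, where 1.0% of genes were higher). The comparison by condition was added after the clone-size values had been seen.

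Cells of 1 clonotype resembled each other in Sostdc1. The likeness of sisters, the mean correlation of detection between cells of the same clonotype, was 0.218 for Sostdc1 over all cells, above 0 in 10 of 10 mice (exact sign-flip p = 0.00195). It ranked 26 of 9922 genes, where the median gene had 0.00456, Foxp3 had 0.393, and 7.88% of genes were higher at p below 0.05. Fam20a stood at 0.117 (exact sign-flip p = 0.00391), Susd2 at 0.0907 (exact sign-flip p = 0.0117) and Ntrk3 at 0.0387 (exact sign-flip p = 0.0938). Within the activated cluster alone Sostdc1 kept a likeness of 0.0865 (8 of 10 mice, exact sign-flip p = 0.00781) and Fam20a of 0.0761 (9 of 10, exact sign-flip p = 0.0117), where 4.13% of genes were higher. In cells with 3000 to 5000 UMIs that Fam20a value was 0.0389 (7 of 10, exact sign-flip p = 0.510). In Tfr cells Susd2 had 0.112 (9 of 10 mice, exact sign-flip p = 0.0176), where 2.88% of genes were higher. Inside the Sostdc1 cluster the companions had values of -0.00991 to 0.00468, where 1.31% of genes were higher.

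Activated and Tfr cells were then split by whether their clone also had a cell in the Sostdc1 cluster. This comparison was added after the data had been seen. In activated cells with such a sister, Sostdc1 was found in 26.7, 27.0, 32.1, 24.3 and 23.7% in WT and 24.6, 21.1, 26.3, 21.1 and 26.0% in 564Igi mice. In activated cells of other clones of 2 or more cells it was found in 9.82, 17.3, 22.1, 11.6 and 14%, and 18.2, 8.30, 20.2, 9.39 and 17.1%. All 10 mice were higher with a sister, at 25.3% ± 3.20 against 14.8% ± 4.88 (exact sign-flip p = 0.00195, where 4.37% of genes were higher). The split uses a cluster label that itself follows Sostdc1 level. For Sostdc1, here and in Tfr cells below, it is therefore not independent of the likeness of sisters. The companions were chosen by their levels over these clusters. Their values by this split, and the p-values given with them, are therefore not independent of that choice. In the activated cluster 1065 cells had 3 or more Sostdc1 counts, and their part in this difference was not tested.

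Fam20a was 20.1% against 13.4% (9 of 10 mice, exact sign-flip p = 0.00391) and Susd2 8.04% against 5.28% (9 of 10, exact sign-flip p = 0.0352). Ntrk3, at 14.5 and 13.2%, did not differ detectably (exact sign-flip p = 0.408). In Tfr cells with a sister in the Sostdc1 cluster, Sostdc1 was 17.1% against 7.81% (9 of 10 mice, exact sign-flip p = 0.00391) and Ntrk3 12.7% against 7.19% (10 of 10, exact sign-flip p = 0.00195). Fam20a was 6.85% against 3.26% there (8 of 10, exact sign-flip p = 0.0313), and Susd2 11.4 and 11.6% (exact sign-flip p = 0.893), where 5.55% of genes were higher.

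Clones with a cell in the Sostdc1 cluster were larger, with a median of 22 cells against 4 for activated and 6 for Tfr cells. Among clonotypes of 2 to 10 cells the Susd2 difference in activated cells was 0.401 points (exact sign-flip p = 0.682). That of Fam20a in Tfr cells was 3.40 points over the 7 mice left, against 3.59 over all 10 (exact sign-flip p = 0.141). In cells with 3000 to 5000 UMIs, again over 7 mice, the Tfr differences were 3.40 points for Ntrk3, against 5.55 over all 10 (exact sign-flip p = 0.109), and 3.96 for Fam20a (exact sign-flip p = 0.0625). The part of clone size in the other differences was tested only through that limit on size.

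**Figure D5:**
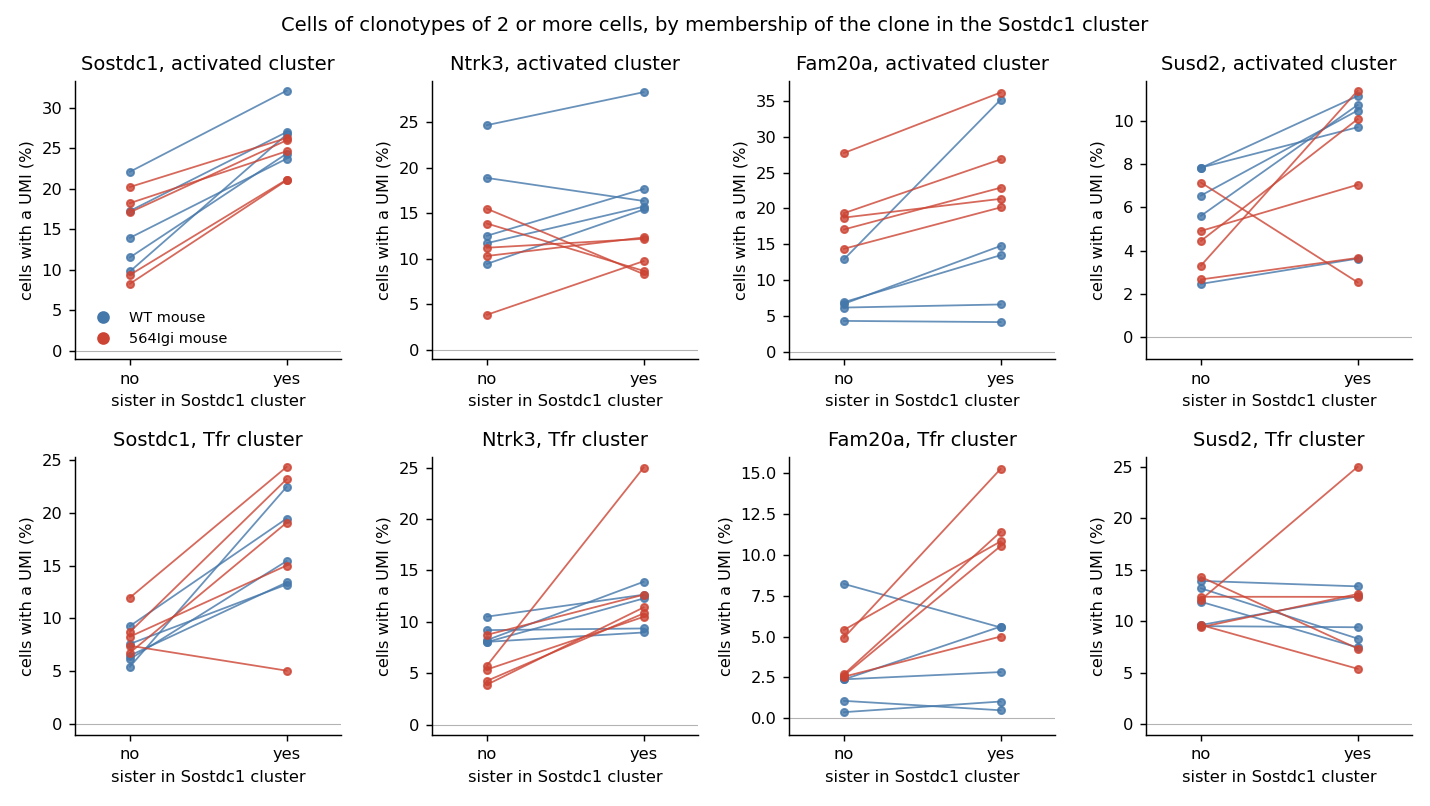
Share of cells (%) with each gene in the activated (top) and Tfr (bottom) clusters, for cells of clonotypes of 2 or more cells whose clone had no cell (left) or at least 1 cell (right) in the Sostdc1 cluster. Each line joins the values of 1 mouse, blue for WT and red for 564Igi. Sostdc1 is higher on the right in 10 of 10 mice in activated and 9 of 10 in Tfr cells.

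Finally, cells with and without a Sostdc1 UMI were compared within the activated and the Tfr cluster over all other genes, each mouse giving both kinds of cell. In both clusters cells with Sostdc1 had more of the Tfh genes Pdcd1, Tnfsf8, Cd200 and Cd40lg and less Foxp3, Ctla4, Selplg and Itgb7. P-values are from limma with Benjamini-Hochberg adjustment, and values are differences of mean log2(corrected count + 1). In activated cells 292 of 9858 genes, or 2.96%, had an adjusted p below 0.01, 143 higher and 149 lower with Sostdc1. With the size limit of 0.2 the calls were 7 genes, 0.071%.

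The genes called higher were Pdcd1, the PD-1 checkpoint receptor (0.27, SE 0.0276), Tnfsf8, CD30 ligand (0.25, SE 0.0284), the tetraspanin Cd82 (0.24, SE 0.0303) and Gpm6b (0.20, SE 0.0228). Each was higher in 10 of 10 mice, with limma adjusted p from 2.77e-09 to 4.16e-07. Crip1 (-0.25), the surface glycoprotein Thy1 (-0.24) and S100a10 (-0.22) were called lower, in 10 of 10 mice. Pdcd1 was found in 81.5% of activated cells with Sostdc1 and 74.4% without.

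In Tfr cells 191 of 9993 genes, or 1.91%, had an adjusted p below 0.01, 144 higher and 47 lower, and 23 genes (0.23%) were called. The largest calls were higher Tnfsf8 (0.40, SE 0.0240, adjusted p = 8.81e-15, limma) and lower Foxp3 (-0.34, SE 0.0259, adjusted p = 1.08e-11, limma). Foxp3 was found in 40.1% of Tfr cells with Sostdc1 and 57.6% without, and Tnfsf8 in 41.5 and 19%. The largest of the other genes called higher were Tbc1d4 (0.33), Tcf7 (0.32), which encodes TCF-1, Eea1 (0.30), Cd82 (0.25), Slfn2 (0.24), Pdcd1 (0.24), Cd40lg (0.23) and the mitochondrial mt-Nd1 (0.22) and mt-Nd4l (0.22). Those called lower were Ly6e (-0.28), AW112010 (-0.25), the invariant chain Cd74 (-0.25), Gimap7 (-0.25), Capg (-0.22), the P-selectin ligand Selplg (-0.21), Tnfrsf18 (-0.21), which encodes GITR, and B2m (-0.21). Each was lower in 10 of 10 mice. In cells with 3000 to 5000 UMIs the activated values of Tnfsf8 (0.18) and Cd82 (0.17) were no longer called, and without the variance trend those of Pdcd1, Ly6e and Gimap7 in Tfr cells had limma adjusted p from 0.0140 to 0.0344. Without the filter on low genes 16 genes were called in Tfr cells, and B2m, Capg, Gimap7, Ly6e, Gpm6b and Pdcd1 had limma adjusted p from 0.0103 to 0.0521. In cells with 1 alpha and 1 beta chain, which are all 21405 cells with a clonotype, Capg (-0.20) and Gpm6b (0.19) fell under the size limit.

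By list, 9 of 20 Tfh genes were higher with Sostdc1 in activated cells at an adjusted p below 0.01 and none lower, and the median of the list was 0.06 against 0.00099 over all genes tested. In addition to Pdcd1 and Tnfsf8 these were Cd200 (0.14), Tox (0.13), Cd40lg (0.11), Ascl2 (0.09), Batf (0.08), Angptl2 (0.07) and Pou2af1 (0.06). Values for the master regulator Bcl6 (0.04) and for Cxcr5 (0.04), Icos (-0.02) and Il21 (0.02) did not pass. In Tfr cells 9 of 20 were higher, with a list median of 0.08 against 0.00518. They included Il21 (0.10), found in 13.4% of cells with and 5.38% without Sostdc1, Slamf6 (0.16) and Btla (0.08). The clusters had been drawn from these genes, and whether such cells lie near the border of the Sostdc1 cluster was not tested.

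Of 10 regulatory genes, 5 were lower in Tfr cells with Sostdc1 and none higher. Beside Foxp3, Capg and Tnfrsf18 these were the checkpoint receptor Ctla4 (-0.15) and Tnfrsf9 (-0.19). In activated cells Foxp3 (-0.06), Ctla4 (-0.10) and the cytokine Il10 (-0.03) were lower and Tnfrsf9 (0.05) was higher. Of 10 homing and memory genes, 5 were lower in activated cells, among them Selplg (-0.17), the integrin Itgb7 (-0.15), the transcription factor Klf2 (-0.12) and the sphingosine-1-phosphate receptor S1pr1 (-0.06). In Tfr cells Selplg and Itgb7 (-0.18) were lower and Itgb1 (0.15) was higher.

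Few genes of the pathways in which the 4 genes are known to act passed, which does not show that the others were alike. None of the 9 BMP, 12 Wnt, 6 neurotrophin and 6 Fam20 and sushi-domain list genes measured in activated cells passed an adjusted p of 0.01 by limma. In Tfr cells Id3 (0.19) among 10 BMP genes and Tcf7 (0.32) among 11 Wnt genes were higher. Of those BMP genes 90% were above 0, against 66.7% of all genes tested. None of the 6 neurotrophin and 5 Fam20 and sushi-domain genes passed. On this scale the companions stood at 0.04 for Ntrk3, 0.03 for Fam20a and 0.03 for Susd2 in activated cells, and at 0.07, 0.03 and 0.03 in Tfr cells. Given as a description, Ntrk3 was higher in 9 of 10 mice in both clusters.

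Mitochondrially encoded transcripts, which the authors used as a measure of cell quality, were higher with Sostdc1. In activated cells 9 of 13 passed an adjusted p of 0.01 by limma, and in Tfr cells 10 of 13, with list medians of 0.10 and 0.16, a list put together after values had been seen. Their part in the differences of other genes was not tested. Counts of corrected B cell marker transcripts per activated cell were 0.0575 to 0.154 with and 0.0554 to 0.109 without Sostdc1 over the 10 mice. By marker, the shares with and without Sostdc1 were 4.27 and 4.06% for Cd22, 1.92 and 1.14% for Pax5, 1.18 and 2.38% for Cd79b, 0.274 and 0.145% for Cd79a, and 0.136 and 0.0214% for Ms4a1.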

How the data were processed

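The authors sequenced 10x Genomics 5′ gene expression and V(D)J libraries from each of 10 chimeras. Per the labels, reads were aligned to GRCm38/mm10 with Cell Ranger 4.0.0 and analysed with Seurat 3.1.4. The authors filtered cells on genes, UMIs and mitochondrial share, removed receptor V and C genes, corrected counts with sctransform within each condition and drew 6 clusters. The deposited expression values are the natural log of corrected UMI counts plus 1, and undoing the log gave whole numbers. Deposited metadata gave the cluster, raw UMI counts and percent of mitochondrial reads of each cell, and a deposited TCR table gave chains. Doublets were not called here, and the limit to cells with 1 alpha and 1 beta chain left out only cells without a clonotype.

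The percent of cells with at least 1 corrected UMI and the mean log2(corrected count + 1) were computed per mouse and population of at least 20 cells. Differences between conditions in the gap by clone size were tested by exact permutation of mice. Expression was fitted over genes that reached 1% of cells in 5 or more mice, with limma 3.58.1 (R 4.3.3, trend on mean expression, Benjamini-Hochberg adjustment, called below 0.01 with a size above 0.2). Values within mice were tested by exact sign-flip in Python 3.11.15. Odds ratios had 0.5 added to each cell of the table. Tests were first tested on simulated data. Limits from counts, at 3 counts over the cells, cover counting error only.

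The 4 genes and the gene lists were chosen with earlier results of these data known. For that reason the planned tests of condition on their levels and on co-detection are not printed, and the other exact p-values stand unadjusted beside the percent of all genes that reach the same limit. Named genes were the 4, those most like them (5 for Sostdc1, 3 for each companion), the 5 most correlated over activated cells, the 10 largest calls in each direction and list members. A few named by this rule are not reported here. Alternatives changed the limma trend, filter, log2 scale, detection limit, raw UMI window (3000 to 5000), mice, labelled sex, clone-size limits and weights. Comparisons by sisters in the Sostdc1 cluster, of condition between clusters and of condition by clone size were added after seeing the data.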

Additional observations from a re-analysis of the deposited data

Results flagged for a closer look

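Among 30 groups of 5 mice, 1 had a mouse far from the others by Dixon's test. Susd2 in the activated cluster was lowest in WT mouse 12, at 2.51% of cells against 7.0 to 8.77% in the other 4 WT mice. Chance flags about 1 in 20 such groups. Without that mouse the 564Igi minus WT difference of Susd2 in the activated cluster was -2.52 percentage points in place of -1.49.

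The gap between expanded and singleton cells differed between conditions, in 4 of 15 comparisons at an exact permutation p below 0.05. Those were Sostdc1 over all cells (564Igi minus WT, -11.8 points) and in the activated cluster (-9.40), and Ntrk3 over all cells (-7.04) and in the activated cluster (-8.94). Of all genes, 6.85% were lower at the same limit over all cells and 5.32% in the activated cluster. The exact permutation p of Sostdc1 in the activated cluster reached 0.0635 with 1 mouse left out. The comparison was added after the clone-size values had been seen. No explanation of these differences was tested.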

How the results depend on the processing

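Of 1193 values recomputed under an alternative, 1040 kept their direction and their side of the threshold, 86 no longer passed it, 17 newly passed it, 48 changed sign and 2 counts moved by over 1.5 times. Differences of condition in level and co-detection are given here as values only. In expression (log2), the condition difference of Sostdc1 in activated cells was -0.0054 with labelled sex as a covariate and -0.0033 without mice 34 and 36, and that of Susd2 in Tfr cells was -0.0026 in cells with 1 alpha and 1 beta chain. In cells with 3000 to 5000 UMIs the condition difference of Fam20a in the Sostdc1 cluster was 0.27. In share of cells, with at least 2 UMIs the condition differences were 0.254 points for Sostdc1 in activated, 0.257 for Susd2 in Tfr and 3.85 for Fam20a in Sostdc1-cluster cells. In the UMI window Ntrk3 in activated cells was -4.85 and Susd2 in Tfr cells 0.661. With 1 alpha and 1 beta chain Ntrk3 in activated cells was -5.71 and Fam20a in the Sostdc1 cluster 13.8, and without mice 34 and 36 Fam20a was 11.1 in activated and 15.1 in Sostdc1-cluster cells. The condition difference in co-detection of Susd2 was -0.27 in the UMI window, -0.49 with 1 alpha and 1 beta chain and -0.67 with 2 UMIs, against -0.52. Genes called with 2 or more Sostdc1 UMIs against none numbered 15 in activated and 71 in Tfr cells, against 7 and 23. With expanded set at 10 cells Sostdc1 in activated cells differed by 4.47 points and Fam20a in the Sostdc1 cluster by -0.462, the latter also -1.11 in the UMI window. Weighting each pair of sisters equally gave a likeness of 0.0649 for Ntrk3 and 0.133 for Susd2 in activated cells, both then passing, and 0.0341 for Ntrk3 and 0.0108 for Fam20a in the Sostdc1 cluster. In the UMI window likeness was -0.0033 for Ntrk3 and 0.0389 for Fam20a (no longer passing) in activated and 0.0385 for Fam20a in Sostdc1-cluster cells, and for Susd2 there it was -0.0015 in clonotypes of 2 to 10 cells. Tfr cells with a sister in the Sostdc1 cluster differed by 0.0645 points in Susd2 in the UMI window. The cause of these shifts was not tested. No paired analysis was possible because mice of the 2 conditions share no replicate number.

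Leaving out 1 mouse gave 651 of 740 values on the same side. Condition differences ranged from -0.0162 to 0.0296 (log2) for Sostdc1 in activated cells and from -0.0030 to 0.0084 for Susd2 in Tfr cells. In points they ranged from -1.88 to 0.784 for Sostdc1 in activated cells, and for Ntrk3 from -6.12 to -2.95 in activated and -2.15 to -1.21 in Tfr cells. For Fam20a the ranges were 6.05 to 9.05 over all cells, 8.36 to 13 in activated, 1.92 to 3.36 in Tfr and 11 to 16.7 in Sostdc1-cluster cells. For Susd2 they were -1.82 to -0.983 over all cells, -2.52 to -0.951 in activated and -0.683 to 0.376 in Tfr cells. Co-detection of Susd2 ranged from -0.65 to -0.46. By clone size Sostdc1 in activated cells ranged from 4.01 to 5.99, Ntrk3 in Tfr cells from -0.0609 to 0.826, Fam20a and Susd2 in the Sostdc1 cluster from -0.712 to 1.17 and from -0.72 to 2.3, and Susd2 over all cells from 2.18 to 2.98. Likeness of sisters ranged from -0.0144 to 0.0141 for Ntrk3 and 0.0505 to 0.0895 for Fam20a in Tfr cells. In the Sostdc1 cluster it ranged from -0.0253 to 0.0132 for Ntrk3, -0.0400 to 0.0427 for Fam20a and -0.0041 to 0.0202 for Susd2. Between clusters the Ntrk3 value against activated ranged from -9.29 to -5.53 and the Fam20a value against Tfr from 9.03 to 14, and the Sostdc1 clone-size difference between conditions in activated cells from -10.9 to -8.21. Sostdc1 clone-size values over all cells (-13.9 to -10.5) and Ntrk3 values over all (-8.15 to -5.84) and activated cells (-10.1 to -6.31) kept their call without any 1 mouse. The smallest Sostdc1 cluster of a mouse held 82 cells.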
